A study of Mus musculus with 35 samples.

Results

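A set of 10 genes of antimicrobial and barrier defence was followed through the 6 colon libraries of this mouse series, with the other tissues beside them. The 10 genes, out of 55356 in the counted annotation, were taken by symbol and were not chosen by a threshold on their levels. They are the lectins Reg3b, Reg3g and Reg4, the secreted proteins Ang4 and Retnlb, the surface protein Lypd8, the antibody transporter Pigr, and the oxidant-producing group Nos2, Duox2 and Duoxa2. Lypd8, Pigr and Nos2 were counted under loci built from Iso-seq, the reading of full-length cDNA, and the other 7 genes under their ENSEMBL models.

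RNA of adult C57BL/6J mice was sequenced after removal of ribosomal RNA, as strand-specific libraries, and no treatment is named. The 29 libraries cover brain, cerebellum, heart and colon of females and males, ovary and testis, in 10 groups of 1 tissue and sex. Each group held 3 libraries except male heart, which held 2. The labels do not say which libraries came from 1 animal, so the p-values below measure the spread between libraries only.

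The colon holds its bacteria at a distance with mucus, secreted proteins, antibody and oxidants. Goblet cells release mucins and proteins such as RELMβ, the product of Retnlb, enterocytes secrete lectins of the REG3 family under the control of cytokines and bacterial signals, and Lypd8 on the colonocyte surface binds flagellated bacteria. Pigr carries IgA, made by plasma cells below the epithelium, into the lumen. Duox2, together with its maturation factor Duoxa2, makes hydrogen peroxide at the apical surface, and Nos2 makes nitric oxide. Paneth cells, which secrete defensins and lysozyme, are a cell type of the small intestine, and the healthy mouse colon largely lacks them.

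The 6 colon libraries held 11742417 to 18890658 counts each, so that 3 counts corresponded to 0.159 to 0.255 CPM (counts scaled to the library total). Of these libraries, 2 stood apart from the other 4. They were female replicate 1 and male replicate 3, whose library codes in the labels end in 9 (49 and 59), while the codes of the other 4 (14, 44, 64 and 74) end in 4. In 26 of the other 27 codes of the series the last digit goes with the tissue, with 4 for colon, and what 9 stands for is not given in the sources used here. The codes 44 and 49 (female replicates 3 and 1) share their first digit, and if this digit marks an animal, the 3 female libraries would come from only 2 animals. Both libraries carried markers of Paneth cells, with a summed level of 540 and 790 CPM over 5 genes against 10.2 to 52.9 CPM in the other 4, and each of the 5 genes was higher in both. The defensin gene Defa24 stood at 111 and 220 CPM in the 2 libraries and at 0 to 0.176 CPM in the other 4, where Defa17 and Mptx2 had no count. Markers of small intestine enterocytes summed to 1087 and 594 CPM against 44.5 to 104 CPM, with 4 of 5 genes higher in both. Among them, the sucrase gene Sis stood at 854 and 366 CPM against 0.703 to 1.22 CPM, and the ileal bile acid binding gene Fabp6 at 95.1 and 122 CPM against 0.0529 to 0.585 CPM. Goblet cell markers summed to 3485 and 2919 CPM against 1326 to 2496 CPM, with 3 of 6 genes higher in both. Markers of the epithelium (3408 to 6023 CPM) and of absorptive colonocytes (14384 to 26955 CPM) were present in all 6 libraries, while markers of posterior position were near the limit of detection. Of these, Hoxd11 stood at 0.341 to 3.12 CPM and was called higher in colon than the average of the other 5 tissues (edgeR adjusted p = 6.84e-08). Its mean was 1.53 CPM in colon and 1.10 CPM in ovary. Hoxd12 and Hoxd13 did not exceed 0.341 CPM, and Hoxb13 had no count. In bulk RNA such as this, fewer cells of a type and less RNA per cell cannot be told apart. All results below are given with and without these 2 libraries where it matters.

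**Figure D1:**
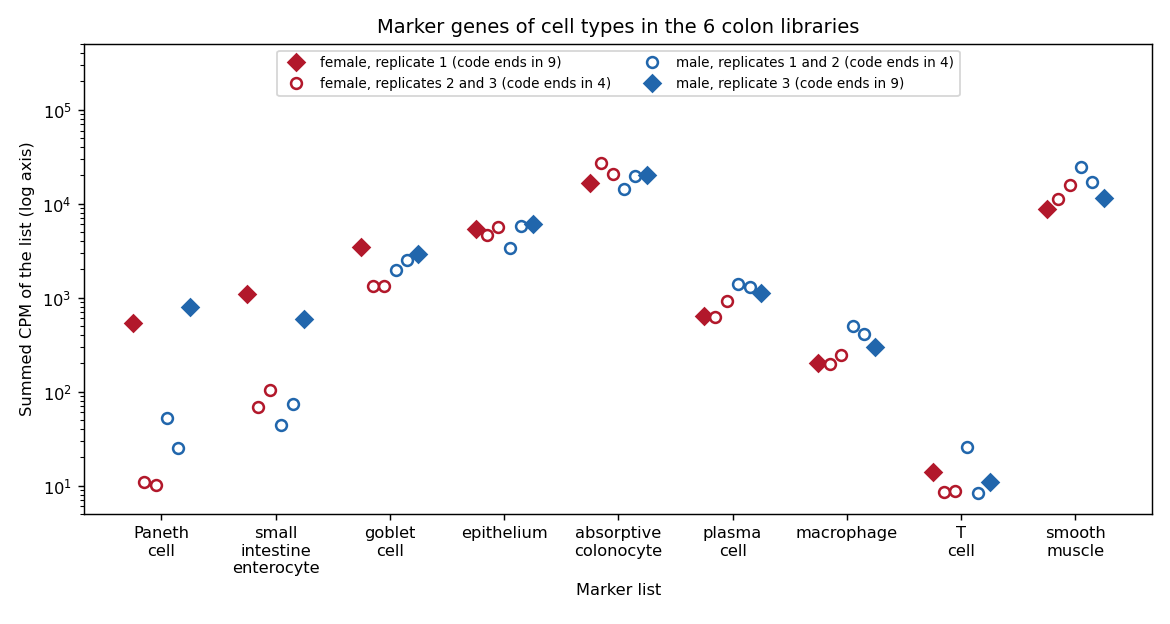
Summed CPM (log axis) of 9 lists of marker genes in the 6 colon libraries, 1 symbol a library, red for female and blue for male, with filled diamonds for the 2 libraries whose code ends in 9. The filled diamonds lie above every open circle for Paneth cells (540 and 790 against at most 52.9 CPM) and small intestine enterocytes (594 and 1087 against at most 104 CPM), lie above them by less for goblet cells (2919 and 3485 against at most 2496 CPM), and overlap the open circles' range for absorptive colonocytes, while for epithelium 1 of them (6023 CPM) lies above the highest open circle.

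Reg3b and Reg3g, which encode C-type lectins that bind bacterial cell walls, were the 2 members that differed most between colon libraries. Their genes lie on chromosome 6, 92802 bases apart, at chr6:78370657-78373466 (plus strand) and chr6:78466269-78468872 (minus strand) of GRCm38. The 150 bases before the RefSeq start of each are shown because both were high in the same libraries, and those of Ang4 because it shared this pattern, beside Duoxa2 and Reg4, which did not. They are credited to RefSeq on GRCm38.p6, read 5′ to 3′ on the strand of the gene, and cover chr6:78370735-78370884 (plus strand), chr6:78468875-78469024 (minus strand), chr14:51773591-51773740 (minus strand), chr2:122298750-122298899 (plus strand) and chr3:98222006-98222155 (plus strand). Capitals mark TATAAA (the TATA box) and, in Reg3b only among these 5, TTCNNNGAA (the palindrome bound by STAT factors).

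Reg3b: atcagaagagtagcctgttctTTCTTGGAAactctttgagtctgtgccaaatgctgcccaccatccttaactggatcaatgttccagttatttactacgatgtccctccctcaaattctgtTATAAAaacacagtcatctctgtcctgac

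Reg3g: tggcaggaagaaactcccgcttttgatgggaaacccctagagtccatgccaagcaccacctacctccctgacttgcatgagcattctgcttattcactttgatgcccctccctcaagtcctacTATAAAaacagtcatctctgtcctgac

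Ang4: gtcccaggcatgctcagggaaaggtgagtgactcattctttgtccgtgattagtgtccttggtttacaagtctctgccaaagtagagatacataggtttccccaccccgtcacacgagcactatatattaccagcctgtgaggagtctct

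Duoxa2: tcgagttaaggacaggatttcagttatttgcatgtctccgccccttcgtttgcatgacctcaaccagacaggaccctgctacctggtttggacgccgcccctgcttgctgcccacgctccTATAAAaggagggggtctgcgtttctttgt

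Reg4: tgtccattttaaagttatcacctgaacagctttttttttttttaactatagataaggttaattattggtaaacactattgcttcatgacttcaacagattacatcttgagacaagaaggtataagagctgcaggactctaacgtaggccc

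Of the 10 members, 8 had a RefSeq window, and Nos2 and Retnlb had none in the table used. Both strands were searched, and the 2 motifs do not overlap in these windows. The TATA box letters were found in the windows of 3 members, Reg3b (first base 29 bases before the start), Reg3g (27 bases before) and Duoxa2 (30 bases before), and in 7.57% of all 32851 windows of 150 bases. The STAT letters were found in 1 member, Reg3b, 129 bases before the start, and in 4.09% of all windows. The Reg3b and Reg3g windows matched at 107 of 150 bases when aligned end to end with gaps, and their longest identical run was 20 bases. The same alignment of Reg3b with Ang4, Reg4 and Duoxa2 gave 86, 85 and 86 identical bases. In GENCODE, 1 transcript of Reg3b starts before the window, which lies in its first intron, and another starts within the last bases of the window.

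Reg3b reached 2051 CPM in female replicate 1 and 1804 CPM in male replicate 3. In the other 4 libraries it stood at 6.62 and 1.63 CPM (females 2 and 3) and 0.476 and 0.266 CPM (males 1 and 2), or 113 counts at most and 5 at least. The lower of the 2 high libraries was thus 273 times above the highest of the other 4, and 99.7% of all colon counts of Reg3b came from these 2 libraries. Outside colon its highest value was 0.429 CPM, in 1 female cerebellum library, which is above the lowest colon library. Reg3g showed the same division, at 508 and 588 CPM against 3.40, 1.43, 1.11 and 0.213 CPM, with 99.3% of its colon counts in the 2 libraries.

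Ang4, an angiogenin-family ribonuclease with antimicrobial activity, and Nos2, the inducible nitric oxide synthase, divided the libraries in the same way at lower levels. Ang4 stood at 26.7 and 24.4 CPM in the 2 libraries and at 1.58, 0.611, 1.75 and 2.07 CPM in females 2 and 3 and males 1 and 2. Nos2 stood at 25.6 and 21.1 CPM against 1.70, 0.815, 2.22 and 0.798 CPM. The 2 libraries held 85.5% of the colon counts of Ang4 and 85.6% of those of Nos2. Hence 4 of the 10 members were higher in both libraries than in all of the other 4, where 9.69% of the 18777 genes with at least 60 colon counts were. None of the 10 was lower in both, where 7.48% of these genes were. The part of the Paneth cell, small intestine and goblet cell markers in these 4 genes was not tested, and no test was made between the library sets, since the labels do not define them as groups.

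**Figure D2:**
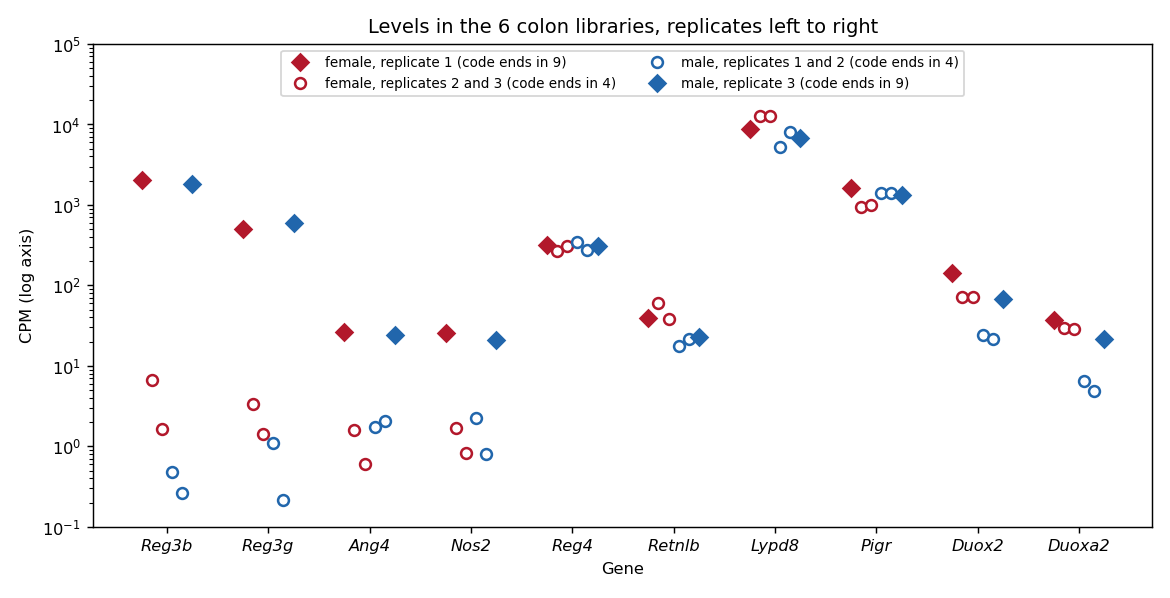
CPM (log axis) of the 10 genes in the 6 colon libraries, in the order female replicates 1 to 3 and male replicates 1 to 3 for each gene, red for female and blue for male, with filled diamonds for the libraries whose code ends in 9. Reg3b, Reg3g, Ang4 and Nos2 lie at 21.1 CPM or more in the 2 filled libraries and below 10 CPM in the other 4, whereas Reg4 stays within 268 to 345 CPM in all 6.

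Reg4, a lectin of secretory cells in the gut, was the steadiest member. Its levels were 321, 268 and 306 CPM in females 1 to 3 and 345, 274 and 306 CPM in males 1 to 3, so the highest library was 1.29 times the lowest. Pigr, the polymeric immunoglobulin receptor, stood at 1630, 945 and 1011 CPM in females and 1392, 1424 and 1310 CPM in males. Neither gene separated the 2 libraries from the others. Lypd8 was the most abundant member, at 8748, 12775 and 12625 CPM in females and 5269, 8167 and 6863 CPM in males, with every female library above every male one. Per length, its mean over the 6 libraries was 3093 ± 1041 FPKM (CPM per kilobase of exon; SD, n = 6), followed by Reg3b at 564 ± 873, Pigr at 334 ± 67.9 and Reg4 at 297 ± 28.4 FPKM. The mean of Reg3b is carried by the 2 libraries, and its median was 3.61 FPKM.

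The spread between libraries was measured as the SD of log2 CPM within sex, after TMM scaling. It was 6.19 for Reg3b, 5.19 for Reg3g, 2.42 for Ang4 and 2.42 for Nos2, where the median over the 29911 genes tested was 0.38. Of all genes, 99.8% or more lay below each of these 4 values. Duox2 (0.75) and Duoxa2 (0.82) also lay above the median, Lypd8 (0.39) and Retnlb (0.35) lay close to it, and Pigr (0.26) and Reg4 (0.09) lay below. Without the 2 libraries, each sex keeps 2 colon libraries, and the SD was 1.05 for Reg3b, 1.12 for Reg3g, 0.68 for Ang4 and 0.81 for Nos2 against a median of 0.31. For Duox2 it was then 0.02 and for Duoxa2 0.14, so that libraries of 1 sex were close to each other.

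Duox2, the dual oxidase, and Duoxa2, the factor that brings it to the cell surface, lie head to head on chromosome 2 with 450 bases between them, Duox2 at chr2:122279247-122298449 (minus strand) and Duoxa2 at chr2:122298900-122302885 (plus strand). Duox2 stood at 142, 71.0 and 72.6 CPM in females 1 to 3 and at 23.9, 21.3 and 67.5 CPM in males 1 to 3. Duoxa2 stood at 37.2, 29.7 and 28.99 CPM in females and at 6.41, 4.84 and 21.7 CPM in males. For both genes every female library was above every male one, and within each sex the library with a code ending in 9 was the highest. Duoxa2 shares 682 exon bases with Duoxa1 on the opposite strand, and whether reads were counted by strand is not given in the sources used here, so reads of the pair may not be told apart. Duoxa1 itself, the partner of Duox1, was counted at 13.0, 15.2 and 9.57 CPM in females and 2.12, 2.18 and 6.97 CPM in males, while Duox1 did not exceed 0.703 CPM.

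Across the 6 colon libraries, Duox2 and Duoxa2 had the same order in log2 CPM after TMM scaling (Spearman's rho = 1, exact permutation p = 0.00278; Pearson's r = 0.97, exact two-sided permutation p = 0.00139). In CPM without this scaling, as printed above, females 2 and 3 lie in opposite order for the 2 genes and rho was 0.943 (exact permutation p = 0.0167). After removing the mean of each sex, r was 0.92. Without the 2 libraries farthest from the median of Duox2, males 1 and 2, r was 0.78 over 4 libraries with an exact permutation p of 0.292, so the relation is no longer shown there. This was the only pair of 4 planned pairs that was computed, since each of the others holds a gene whose values fall into separate clusters. Males 1 and 2 lie apart from the rest for Duox2 and Duoxa2 as well. The planned adjustment over 4 pairs was not made, so these p-values are unadjusted, and the permutations did not keep the sexes apart.

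Retnlb, which encodes a goblet cell protein that acts against bacteria and worms, was at 39.6, 59.9 and 38.0 CPM in females and 17.6, 21.6 and 22.9 CPM in males. The groups did not overlap, and the 2 libraries did not stand out. In all, 4 members (Retnlb, Lypd8, Duox2 and Duoxa2) had every female library above every male one, as did 2.54% of the genes tested.

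**Figure D3:**
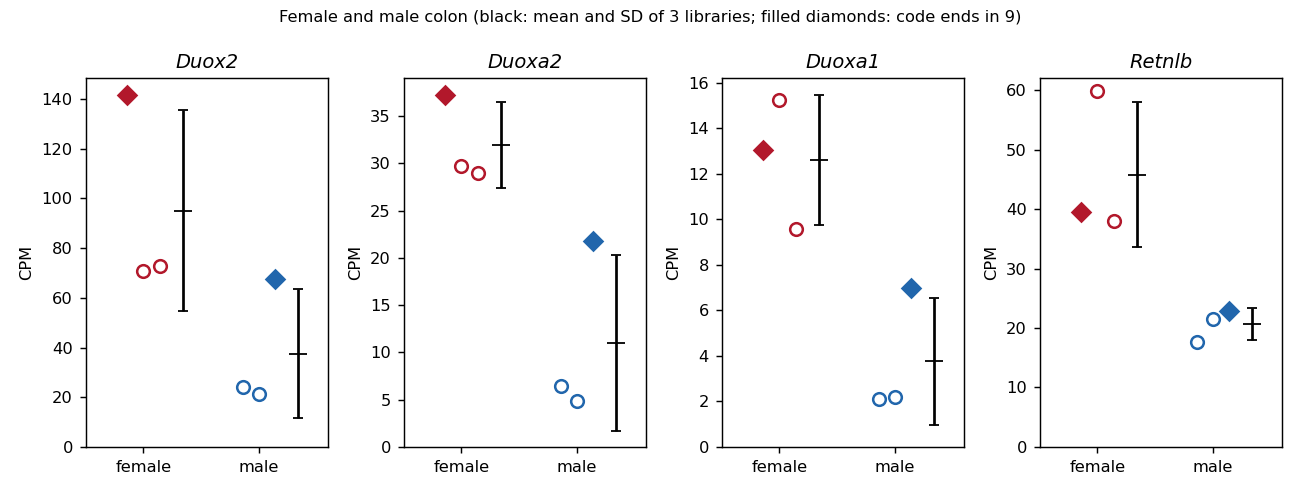
CPM of Duox2, Duoxa2, Duoxa1 and Retnlb in 3 female (red) and 3 male (blue) colon libraries on axes that start at 0, with the mean and SD of each sex in black and filled diamonds for libraries whose code ends in 9. All red symbols lie above all blue ones in each panel, and for Duox2 the lowest female (71.0 CPM) and the highest male (67.5 CPM) nearly meet.

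The comparison of male with female colon called 0 of the 10 members at an adjusted p under 0.05 (edgeR quasi-likelihood test, Benjamini-Hochberg over all genes), where 0.324% of the 29911 genes were called in either direction. At an unadjusted p under 0.05 there were 3 members and 2648 genes. Duox2 averaged 95.1 ± 40.4 CPM in females and 37.6 ± 26.0 CPM in males (SD, n = 3 each), a log2 difference of -1.47 (SE 0.41; edgeR adjusted p = 0.176). Duoxa2 averaged 32.0 ± 4.55 and 11.0 ± 9.34 CPM, a log2 difference of -1.69 (SE 0.52; edgeR adjusted p = 0.245). Retnlb averaged 45.8 ± 12.2 and 20.7 ± 2.76 CPM, a log2 difference of -1.31 (SE 0.35; edgeR adjusted p = 0.185), and DESeq2 alone called it (-1.34, adjusted p = 0.00144), where it called 0.883% of all genes lower in males. Lypd8 averaged 11383 ± 2283 and 6766 ± 1452 CPM, a log2 difference of -0.90 (SE 0.45; edgeR adjusted p = 0.575).

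Within the libraries whose code ends in 4, 2 of each sex, edgeR gave Duox2 a difference of -1.87 (adjusted p = 0.0671) and Duoxa2 one of -2.59 (adjusted p = 0.0732), and 0 members were called, where 0.345% of all genes were. With all 6 libraries and the code ending as a term, Duox2 was called lower in males (-1.62, SE 0.33, edgeR adjusted p = 0.0199) as the only member, where 0.251% of all genes were called lower. Leaving out male replicate 3 alone called 3 members lower in males, Duox2 (-2.22, edgeR adjusted p = 0.0145), Duoxa2 (-2.67, adjusted p = 0.0237) and Reg3b (-10.92, adjusted p = 0.0492), where 0.295% of all genes were called lower. In this fit only the females kept a library whose code ends in 9, and for all 3 genes that library was the highest female one. Leaving out female replicate 1 turned Reg3b to 6.99 (edgeR adjusted p = 0.343), while its difference over all 6 libraries was -0.24 with an SE of 1.74. No gene of the marker lists of other cell types was called between the sexes by edgeR (0 of 4 plasma cell, 0 of 5 macrophage and 0 of 5 smooth muscle genes among them), but some lists did not overlap in CPM. All 4 plasma cell genes were lower in every female library than in every male one (summed 622 to 923 against 1122 to 1409 CPM), as were 4 of 5 macrophage genes (197 to 245 against 297 to 494 CPM), where 10.8% of all genes tested were. Enteric neuron markers also summed lower in females (15.2 to 16.6 against 21.9 to 22.9 CPM). So did exocrine pancreas markers (11.3 to 18.6 against 19.1 to 22.9 CPM). IgA supply genes (995 to 1399 against 1734 to 2157 CPM) and cytokines (37.7 to 51.8 against 67.0 to 90.8 CPM) summed lower. Neutrophil markers summed higher in females, near the limit of detection (0.681 to 1.11 against 0.106 to 0.318 CPM). The resistin family summed higher (45.6 to 76.9 against 21.1 to 45.2 CPM). The other sums overlapped. Smooth muscle markers summed to 8827 to 15689 CPM in females and 11418 to 24597 CPM in males, and epithelium markers to 4605 to 5691 and 3408 to 6023 CPM. The part of these lists in the values of the members was not tested.

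Against the other 5 tissues in 1 contrast, all 10 members were called higher in colon (edgeR, adjusted p under 0.05), where 28.2% of all genes tested were. Reg3b, Reg3g, Reg4, Ang4 and Retnlb passed the filter on low counts only because of colon, so for these 5 a call was favoured by the filter. For 8 members the lowest colon library was above the highest library of any other tissue. With every library outside colon set to 3 counts where it held fewer, the ratio of the lowest colon library to the highest elsewhere was 2794 for Lypd8, 1335 for Pigr, 805 for Reg4, 106 for Retnlb, 9.48 for Duox2, 8.73 for Duoxa2, 2.48 for Ang4 and 1.28 for Reg3g. For Reg3b 5 of 6 colon libraries were above all others, and for Nos2 only 1 was. Fitted differences were 13.87 for Lypd8 (SE 0.33) and 7.75 for Duox2 (SE 0.27) on the log2 scale, and those of Reg3b, Reg3g, Ang4 and Retnlb are left out because some tissues had no count in any library. Without the 2 libraries 9 members were called higher, where 26.2% of all genes were, and the exception was Nos2.

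In the comparisons tissue by tissue, calls of Reg3b, Reg3g, Reg4, Ang4 and Retnlb were again favoured by the filter. With these genes, 10 of 10 members were called higher in colon than in brain (29.6% of all genes), cerebellum (28.9%) and testis (29.6%). Against heart (28.9%) and ovary (21.4%), 9 of 10 were called higher. The gene outside was Nos2 in both cases. Its levels per length were highest in ovary (4.88 ± 1.93 FPKM, SD, n = 3), followed by colon (2.23 ± 2.93, n = 6), heart (1.17 ± 0.53, n = 5), testis (0.0995 ± 0.0142, n = 3), cerebellum (0.0539 ± 0.0421, n = 6) and brain (0.0430 ± 0.0273, n = 6). Nos2 stood at 10.4, 23.5 and 23.4 CPM in the 3 ovary libraries, at 2.47, 5.59 and 2.17 CPM in female heart and at 6.18 and 6.40 CPM in male heart. Over all libraries, no difference passed the test between colon and ovary (log2 difference -0.91, SE 0.74, edgeR adjusted p = 0.339) or heart (0.25, SE 0.67, adjusted p = 0.866). The result for ovary rested on both high libraries, since leaving out female replicate 1 alone gave -2.28 (edgeR adjusted p = 0.00541; 25.5% of all genes were lower) and leaving out male replicate 3 alone gave -2.12 (adjusted p = 0.0107; 25.4% of all genes). Against the 5 tissues together Nos2 was higher by 2.87 (SE 0.50, edgeR adjusted p = 1.72e-05), and without the 2 libraries this was 0.27 (adjusted p = 0.629). Then Nos2 was called lower in colon than in heart (-2.34, edgeR adjusted p = 0.000149; 23.7% of all genes were lower) and in ovary (-3.50, adjusted p = 3.46e-06; 24.6% of all genes).

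**Figure D4:**
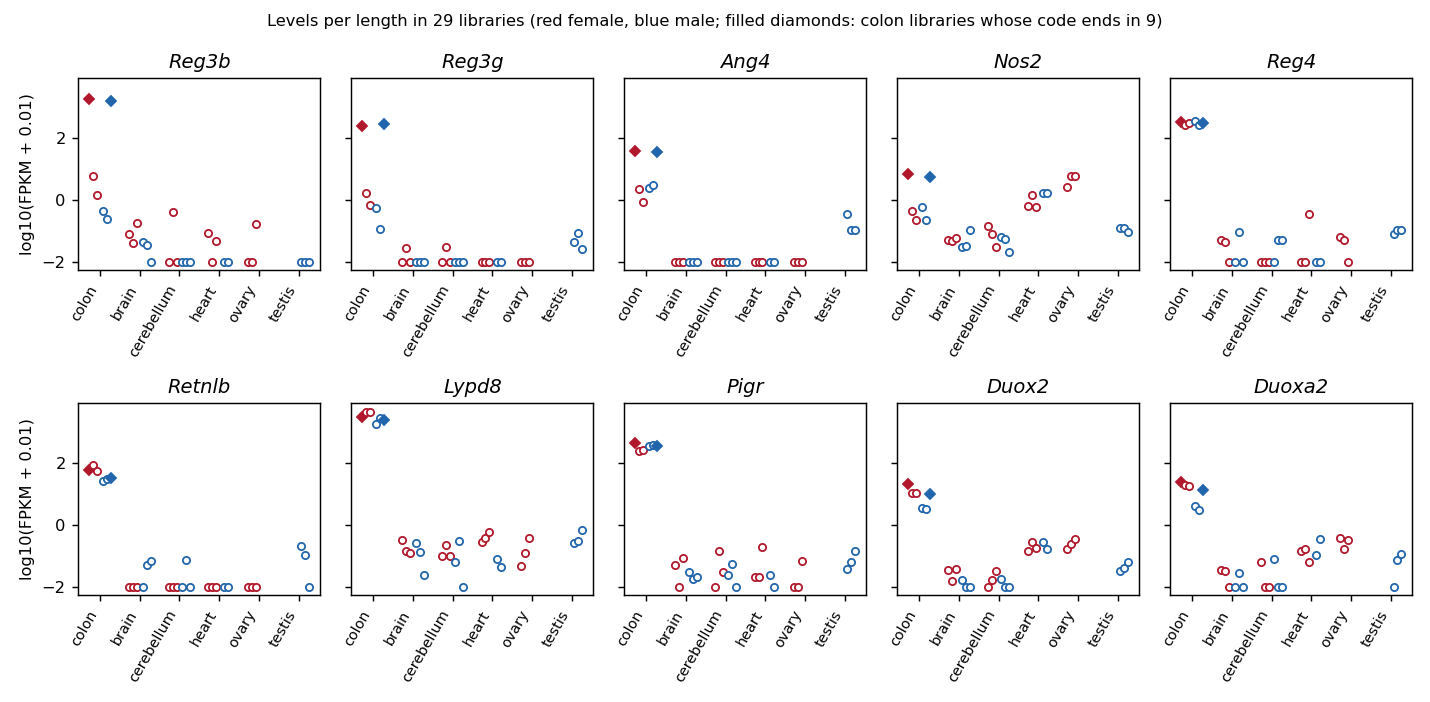
Levels per length of the 10 genes in the 29 libraries, as log10(FPKM + 0.01), with red for female, blue for male and filled diamonds for the colon libraries whose code ends in 9; libraries without a count lie at -2. Colon lies above all other tissues for 8 genes, whereas ovary and heart overlap or exceed the open colon circles for Nos2 and 1 cerebellum library exceeds the lowest colon circle for Reg3b.

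Near relatives of the members ranged in colon from no count to 220 CPM. Of the other REG genes, Reg3a was counted only in the 2 libraries (5.37 and 2.77 CPM), Reg3d only in female replicate 1 (0.426 CPM), Reg1 only in the 2 libraries (0.511 and 0.525 CPM) and Reg2 in none. Ang5 and Ang6 had no count in colon and Ang2 did not exceed 0.106 CPM, while Ang, which shares 1 counted locus with Rnase4, stood at 149 to 220 CPM. Ang was called higher than the average of the 5 tissues (1.90 on the log2 scale, edgeR adjusted p = 9.55e-16), though a library elsewhere reached 206 CPM. Of the resistin family, Retnla, made by macrophages, ranged from 14.0 to 55.0 CPM and Retn, the resistin gene of fat cells, from 2.29 to 28.5 CPM. Both were called higher in colon (Retnla 4.29, edgeR adjusted p = 7.26e-12; Retn 2.65, adjusted p = 0.000898) against the average of the 5 tissues, though single libraries elsewhere reached 87.2 CPM for Retnla and 228 CPM for Retn. The colon mean of Retn (17.1 CPM) was below those of heart (46.0 CPM) and ovary (19.0 CPM). Retnlg did not exceed 0.611 CPM in colon and was not called. Among synthases of nitric oxide, neuronal Nos1 ranged from 11.2 to 26.5 CPM and endothelial Nos3 from 1.05 to 4.82 CPM. Of the 9 oxidant enzymes listed, 7 were called higher in colon than in the other tissues and 2 lower (edgeR, adjusted p under 0.05), where 28.2% of all genes were called higher and 31.1% lower. Noxa1, an activator of the epithelial oxidase, stood at 12.3 to 24.0 CPM in colon and at most at 0.333 CPM elsewhere, and its fitted difference is left out because brain, cerebellum and heart had no count. The next higher ones were Duoxa1 (5.56 on the log2 scale) and the oxidase Nox1 itself (3.14), and the lower ones were Nos3 (-1.70) and Duox1 (-1.29). These calls are against the average of the other 5 tissues, and for 3 of the 7 higher enzymes another tissue had a higher mean. Nos1 averaged 20.0 CPM in colon, 63.7 CPM in brain and 121 CPM in cerebellum, Cyba 38.0 CPM in colon and 46.6 CPM in ovary, and Noxo1 20.5 CPM in colon and 26.4 CPM in testis.

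Of the 18 other secreted defence proteins, 12 were called higher in colon, where 28.2% of all genes tested were. The 5 called lower were a share near that of all genes (31.1%). The same 2 shares apply to the lists that follow. Dmbt1, a scavenger receptor of mucosal surfaces, averaged 6002 ± 988 CPM over the 6 libraries (SD), the goblet cell lectin Zg16 590 ± 128 CPM and the membrane mucin Muc13 1370 ± 347 CPM, and none of them exceeded 2.37 CPM elsewhere. The neutrophil proteins S100a8, S100a9 and Ltf were lower in colon, where they did not exceed 0.176, 0.159 and 0.293 CPM. All 9 genes of IgA supply were called higher, with Igha at 751 ± 274, Igkc at 480 ± 135 and Jchain at 239 ± 78.4 CPM. Of 13 cytokines that induce defence genes, 9 passed the filter on low counts, of which 4 were called higher, with the largest differences for Tnf, Il18 and Il1b, and Il4 was called lower. Il22 did not exceed 0.266 CPM and Il17a 0.0852 CPM in any colon library. All 18 receptors and transducers were called higher, the largest differences being those of Il22ra1 (6.92), the receptor chain for interleukin 22, Nfkbiz (3.50) and Il17rc (3.50). The median log2 difference was 1.63 for oxidant enzymes, 6.17 for secreted proteins, 4.23 for IgA supply, 0.49 for the cytokines and 1.59 for receptors and transducers, where that of all genes tested was -0.38. With genes that had no count in some tissue set to 3 counts over that tissue, the medians of secreted proteins and cytokines became 5.18 and 0.62 (Il25, with too few counts for a bound, left out), and those of the other 3 lists did not move. Without the 2 libraries these medians were 1.80, 4.84, 3.98, 0.97 and 1.63, in the same order, against -0.40 for all genes. The colon mean was the highest of the 6 tissues for 12 of 12 secreted proteins called higher, 8 of 9 genes of IgA supply, 3 of 4 cytokines and 10 of 18 receptors and transducers. Without the 2 libraries the counts were 7 and 2 for oxidant enzymes, 11 and 5 for secreted proteins, 9 and 0 for IgA supply, 4 and 1 for cytokines and 18 and 0 for receptors, where 26.2% of all genes were higher and 29.4% lower. Noxa1, Itln1, Muc13, Pla2g2a and Tnfrsf17 passed the filter on low counts only because of colon. Among the genes that passed it without colon, 6 of 8 oxidant enzymes, 9 of 15 secreted proteins and 8 of 8 genes of IgA supply were called higher over all libraries. Of all genes tested, 28.2% were. Between male and female colon, 0 genes of the 8 lists were called by edgeR, with or without the 2 libraries.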

How the data were processed

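RNA-seq of 29 libraries was analysed from the deposited whole-number counts of reads per gene, which the authors had not normalized and of which all 29 columns were used (0 further columns of per-sample values). The submitters' processing notes name FastQC 0.11.8, MultiQC 0.9, HISAT2 2.0.5 and featureCounts 1.6.3 on mm10, and the Methods state that uniquely mapped reads were kept. Whether reads were counted by strand is not given in the sources used here. Symbols were matched through the deposited map and GENCODE M21. The 10 members and all gene lists were chosen with earlier results of these data known.

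CPM was computed from library totals and FPKM as CPM per kilobase of the union of exons. Groups were compared with edgeR 4.0.16 (R 4.3.3), with TMM scaling, filterByExpr, 1 mean for each of 10 groups and quasi-likelihood tests, over 29911 genes with Benjamini-Hochberg adjustment at 0.05. All 10 members passed the filter, of which 5 (Lypd8, Pigr, Nos2, Duox2 and Duoxa2) also passed it without the colon libraries. DESeq2 1.42.0 served as an alternative. Standard errors were derived from the log2 difference and its F statistic. The SD of log2 CPM used a prior count of 2. The script was tested on simulated data. Alignments used Biopython 1.88. Named are all members, their near relatives, listed genes called between the sexes (at most 4 a list), and for colon against the other tissues up to 3 a list in each direction. Marker lists are given as sums, with defining genes by name. All 15 pairs of colon libraries differed beyond counting noise (chi-square per gene 27.4 to 79.1).

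Alternatives were other size factors, DESeq2, no filter, a replicate block, a library code block, leaving out colon libraries 1 by 1 or the 2 together, a fit of the 6 colon libraries, and other scalings of spread and correlation. The code ending as a term was added after seeing the data. The 6 Iso-seq samples have no count columns and entered through the annotation only.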

Additional observations from a re-analysis of the deposited data

How the results depend on the processing

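Colon against the other 5 tissues gave 8 to 10 members called higher in every alternative, and colon against each tissue 48 higher calls in every edgeR fit. The lower calls, 0 over all libraries, were 1 (Nos2 against ovary) without female replicate 1 or male replicate 3, and 2 (Nos2 against ovary and heart) without both. DESeq2 gave 37 calls, with no p-value for Reg3b and Reg3g in any tissue and Ang4 against testis at an adjusted p of 0.0686. Its size factors moved the median difference of all genes between colon and the other 5 tissues from -0.38 to -0.23, and that of Nos2 from 2.87 to 3.07. For male against female colon, against 0 members over all libraries, DESeq2 called 1 (Retnlb), the code ending as a term called 1 (Duox2), and leaving out 1 library called 0 to 3. Over all genes, the 97 calls between the sexes became 405 with DESeq2, 38 in the fit of the 6 colon libraries alone, and 43 to 133 with 1 library left out. The difference of Nos2 between colon and heart turned from 0.25 to -2.34 without the 2 libraries whose code ends in 9, and ranged from -1.12 to 0.52 when 1 library was left out. Between the sexes, leaving out 1 library moved Reg3b between -10.92 and 6.99 and Reg3g, which was 0.15 over all libraries, between -8.10 and 6.15. Reg3g was -2.11 without the 2 libraries and -0.94 with the code ending as a term.

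Same-numbered colon libraries of females and males correlated at -0.11, 0.12 and -0.17 in their deviations from group means, so they share only a number. The replicate block changed no call of a member. Under this block Reg3g reversed to -1.86 between the sexes, and 82 of 29911 genes were called between the sexes in place of 97.

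The 7 members whose spread lay above the median of all genes became 6 to 8 under the other settings. The r of Duox2 and Duoxa2 was 0.92 to 1.00 under the other scalings and with 1 library left out, and 0.78 without males 1 and 2. In all, 51 of 54 alternatives for the main counts and correlations were taken as the same. A count needed only to be close to the main one, and 37 calls with DESeq2 against 48 were taken as the same. Among the checks of single genes, 232 were taken as unchanged, 8 gained a call, 1 lost it and 12 changed sign. With 2 or 3 libraries a group, a log2 difference of -0.90 between the sexes (Lypd8) was not called under any setting.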

Other observations

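Of the 18 other secreted defence proteins, 5 were higher in both colon libraries whose code ends in 9 than in all of the other 4, and they were singled out after their values were seen. The lysozyme gene Lyz1 stood at 270 and 370 CPM in the 2 libraries (female replicate 1 and male replicate 3) against 9.64 to 52.8 CPM, and the lectin gene Itln1 at 109 and 137 CPM against at most 0.543 CPM. The phospholipase gene Pla2g2a was counted at 1.62 and 1.35 CPM against at most 0.0585 CPM. The gel-forming mucin gene Muc2 stood at 3738 and 1522 CPM against 685 to 853 CPM, and Zg16 at 711 and 736 CPM against at most 609 CPM. Saa3, of the serum amyloid A family, went the other way, at 14.1 and 14.3 CPM against 21.4 to 41.7 CPM. Of the 13 secreted proteins with at least 60 colon counts, which leaves out Pla2g2a, 4 were thus higher in both and 1 lower, where 9.69% and 7.48% of all genes with at least 60 colon counts were. Of the 6 goblet cell markers, all with at least 60 colon counts, 3 were likewise higher in both. Lyz1 and Itln1 are also on the list of Paneth cell markers. Muc13, Dmbt1 and Saa1 did not divide the libraries in this way.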
